A study of Homo sapiens with 4 samples.

Results

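Splicing was described for 9 genes of actin, myosin and the wider cytoskeleton: DBNL, MPRIP, SMTN, TNNT1, ACTG1, TBCA, LMNA, LRRFIP1 and AFDN. They were taken by gene symbol from the 5 deposited splicing tables, which listed 16 events in them, among 471 events in 353 genes in all. The genes were selected on their inclusion and skipping counts in OE and WT in these tables, so their differences between genotypes are a description. Where a count of tests passed or a p of the authors' deposited table is printed for them, it is no independent evidence. All cells were RKO, an established human colorectal cancer line. One genotype was wild type (WT), and the other, labelled ZCCHC7-OE (OE), overexpressed ZCCHC7, which helps the exosome to degrade RNA in the nucleus. Each genotype had 1 input library and 1 immunoprecipitate (IP), 4 libraries in all, without replicates. The sources used here did not give the vector, the promoter or whether the OE cells were 1 clone. The labels name a ZCCHC7 antibody as the treatment of the IP samples and antibodies against SRSF1 and m6A in the protocol, so the target of the IP is left unnamed.

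Actin filaments give a cell its shape and carry myosin motors, and outside striated muscle their contraction is set largely by phosphorylation of the myosin light chain. Microtubules are built from tubulin dimers that fold with the help of cofactors, and lamins form a mesh under the nuclear membrane. Many genes of these systems make several proteins through alternative exons, those of troponin T and the lamins being textbook cases. Of the 9 products, DBNL binds actin and links it to endocytosis, MPRIP brings myosin phosphatase to actin fibres, and SMTN and TNNT1 are best known from smooth and slow skeletal muscle. ACTG1 is cytoplasmic gamma-actin, TBCA a tubulin folding cofactor, LMNA the gene of lamins A and C, and AFDN an actin-binding scaffold of adherens junctions. LRRFIP1 binds the actin-remodelling protein FLII and nucleic acids, so it belongs to the cytoskeleton only in part.

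Every count cell joined 2 values, and neither was tied to a library by the sources used here. They are called first and second below, in the order written. Comparing a value across genotypes assumes that both cells had the same order of libraries. OE was read as the first-named side from the name of the comparison alone. Inclusion counts are reads for the form that keeps the exon, intron or exon extension (the variable part), and skipping counts are reads for the form without it. In all 16 events the inclusion form was as long as the variable part plus 149 bases, and the skipping form was 149 bases. Reads lying wholly inside the variable part were thus given room in the inclusion form, and long parts had more of it. A share below is inclusion counts as a percent of all counts of an event, with an exact 95% Clopper-Pearson interval that covers counting error only. For a share of 0%, the limit given as what it allows is 3 counts of the total. This rule is close to the exact bound of 30.8% at 10 counts. At 3 counts it gives 100%, where the exact bound is 70.8%. An inclusion level is a share taken after dividing each count by the length of its form. Coordinates are those of the deposited tables and annotation, in which all 9 genes overlap their RefSeq namesakes on GRCh38.p14. In bulk RNA, fewer cells with a form and less of it per cell cannot be told apart.

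Counts of the 16 events were few: 171 in WT and 159 in OE. First values held 123 of these and second values 48 in WT, against 76 and 83 in OE. Over all events, WT had 3016 first-value and 817 second-value counts, and OE had 913 and 1519. Added counts thus mix the values in unlike proportions in WT and OE. Inclusion and skipping counts were split by value. In the 7 genes other than ACTG1 and TBCA the second values held 74 inclusion counts and 0 skipping counts, with none at all for LRRFIP1 and AFDN. Their first values held 49 inclusion and 109 skipping counts. ACTG1 had 25 skipping counts in its second values, and TBCA had 2. Over the 455 events of other genes, with both genotypes pooled, inclusion made up 29.3% of the first and 67.5% of the second values. Over the 16 events it made up 27.6% and 79.4%. These pooled shares depend on the unlike proportions. In other genes the second-value share was 45.0% in WT and 79.5% in OE, and the first-value share 27.0% and 37.4%. Over the 16 events the second-value share was 56.25% in WT and 92.8% in OE, and the first-value share 19.5% and 40.8%. Of the second-value inclusion counts of the 16 events, 101 lay in the 8 parts over 149 bases and 3 in the 8 shorter ones. In other genes, mutually exclusive exons left out, the second values held 1091 inclusion counts in longer parts and 363 in shorter ones. With genotypes pooled, the inclusion share was higher in the second values for both, 30.7% and 71.8% in longer and 27.1% and 61.8% in shorter parts. First-value inclusion counts of the 16 events were 12 in the long parts and 43 in the short ones, 24 of these at LRRFIP1. The role of length in this split was not tested.

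**Figure D1:**
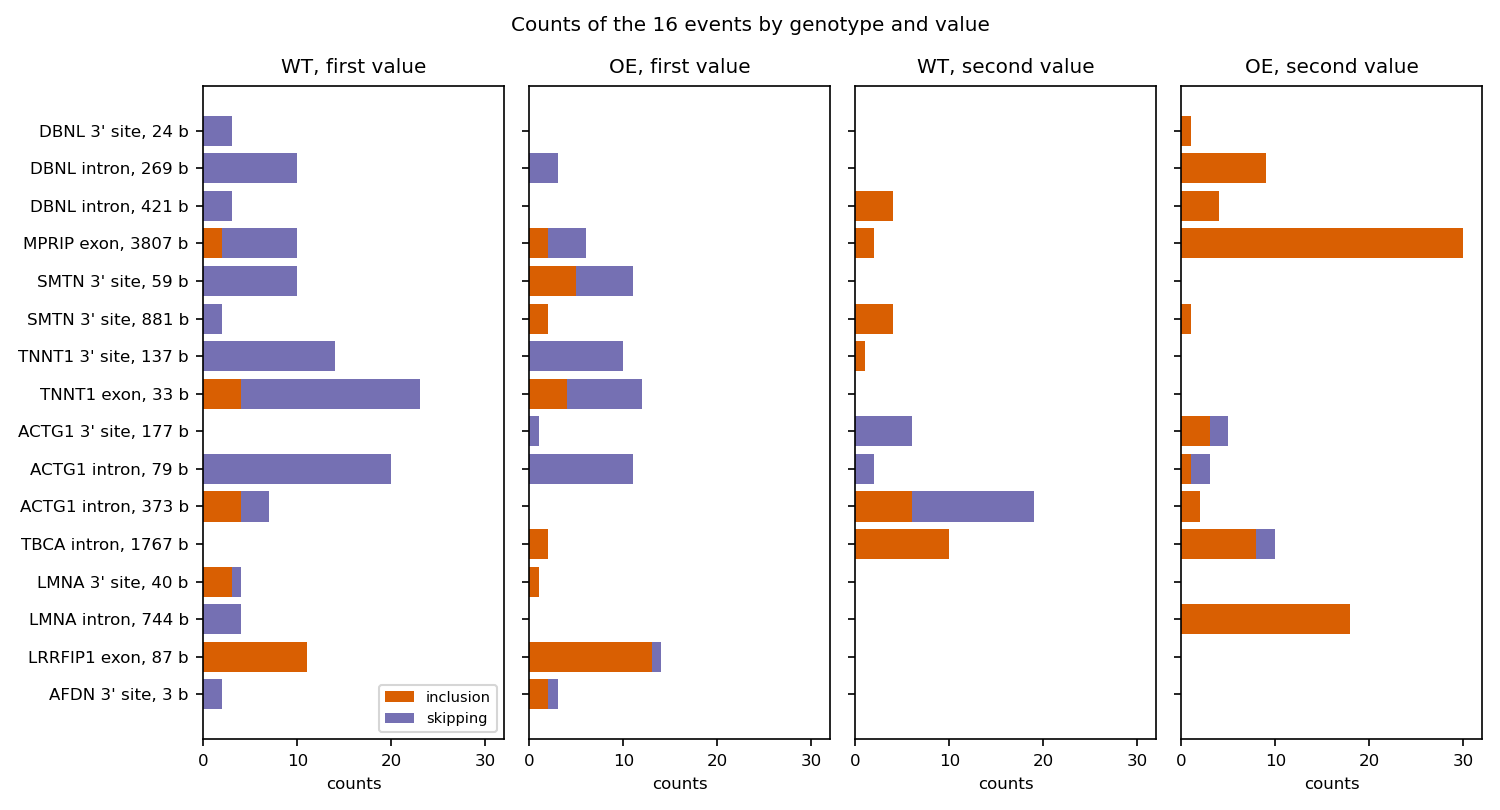
Inclusion (orange) and skipping (violet) counts of the 16 events, named by gene, kind and length of the variable part in bases (b), with 1 panel for each genotype and value and counts on the horizontal axis. Outside ACTG1 and TBCA the second values hold inclusion counts only, up to 30 at MPRIP and 18 at the LMNA intron, both in OE.

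**Figure D2:**
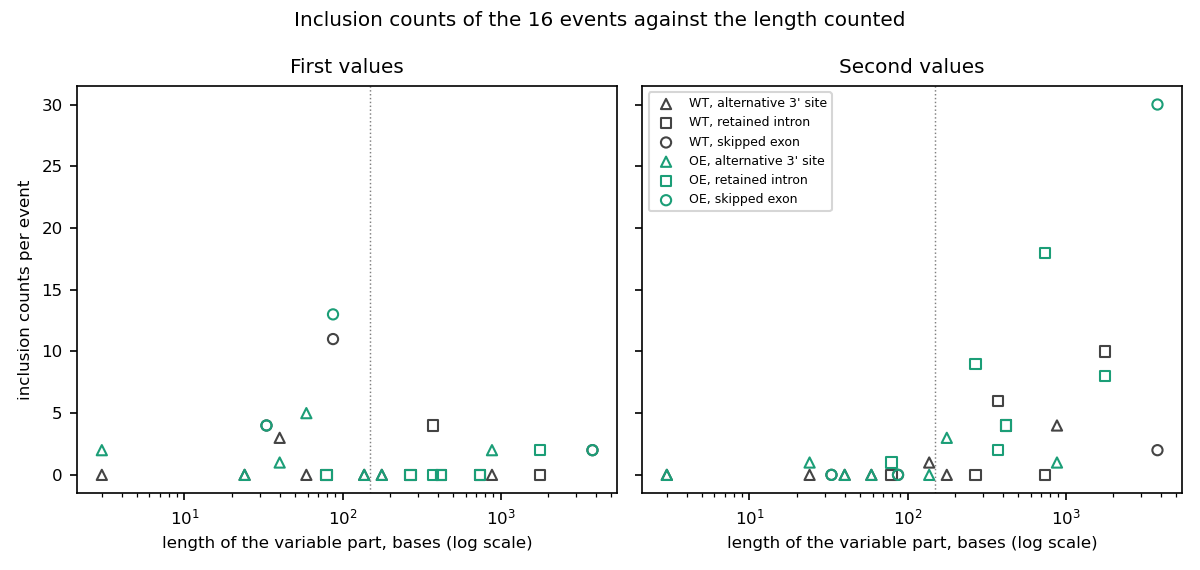
Inclusion counts per event against the length of the variable part (log axis, dotted line at 149 bases), in WT (grey) and OE (green), by kind of event. Second-value counts above 1 all lie to the right of the line, whereas first-value counts peak at the 87-base LRRFIP1 exon, at 13 in OE and 11 in WT.

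Of the 16 events, 8 in 7 genes had at least 10 counts in each genotype: an intron of DBNL, the MPRIP exon, a 3' site of SMTN, both TNNT1 events, an intron of ACTG1, and the TBCA and LRRFIP1 events. On the added counts of both values, 2 of these 8 passed Fisher's exact test, DBNL and MPRIP, both higher in OE. Those sums mix the values differently in each genotype. Over all 32 events with that many counts 28.1% passed, all of them higher in OE, and since the genes were chosen with this contrast known nothing is read from the count. With the exact test stratified by value 0 of the 8 passed, and on the first values alone 0 of 5 did. The level difference, OE minus WT, had a median of 9.56 percentage points over the 8 events (−72.0 to 51.7), beside 10.3 over the 32. In the authors' deposited table no event of the 9 genes had FDR under 0.05, and 0.212% of all events did.

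In DBNL the forms were split by value. Its intron of 269 bases (ENSG00000136279, chromosome 7, 44057860 to 44058128, plus strand) separates exons 6 and 7 of 13 in transcript DBNL-220. The first values held 10 skipping counts in WT and 3 in OE, with 0 inclusion counts in both. The second value held 9 inclusion counts of 9 in OE (100%, 66.4 to 100) and nothing in WT. Both first-value shares were thus 0%. In WT 0 of 10 counts allows up to 30.0%, and in OE 0 of 3 has an exact upper limit of 70.8%. The second values could not be compared. The intron is kept whole in DBNL-221, a processed transcript with no coding part, and exons of 3 other transcripts cover 65.8% of it. Further along the gene, an intron of 421 bases (44058481 to 44058901) held 4 second-value inclusion counts in either genotype, and WT had 3 first-value skipping counts. Inside its last bases a 3' site adds 24 bases, or 8 codons, to exon 9 of DBNL-217, with 1 inclusion count in OE. That site and the intron share the same 3 WT skipping counts, so they are not separate evidence.

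MPRIP had the longest part of all 16, an exon of 3807 bases (ENSG00000133030, chromosome 17, 17164109 to 17167915). It is exon 3 of 11 in MPRIP-201, where it is wholly coding, 1269 codons. Of the 20 annotated MPRIP transcripts only MPRIP-201 holds it whole, so its place and coding part rest on that transcript alone. MPRIP-205, with 23 exons, joins exons 15 and 16 across it. In the first values WT had 2 inclusion and 8 skipping counts and OE had 2 and 4. In the second values WT had 2 inclusion counts and OE had 30, with no skipping in either. First-value shares overlapped, 20.0% (2.52 to 55.6) in WT and 33.3% (4.33 to 77.7) in OE, and 100% in the second value of both. The second-value reads in the exon came to 7.58 per kb of the inclusion form in OE and 0.506 in WT. Second values over all events summed to 1519 counts in OE and 817 in WT. Within OE the share was 33.3% in the first value and 100% in the second (88.4 to 100), on 6 and 30 counts. Over all events, Fisher's exact test of first against second values within a genotype, at a minimum of 5 counts in each, passed in 9 of 20 comparisons (45.0%). For the 9 genes, chosen on these counts, nothing is read from it. On added counts the share was 88.9% in OE and 33.3% in WT, but the level, corrected for the long form, was 23.2% and 1.85%. Within the first values the levels were 1.85% in OE and 0.933% in WT, a difference of 0.916 points, and within the second values both were 100%. The authors' deposited table gave a p of 0.556 and a difference of 0.005 in inclusion level, as a fraction. A transcript that starts inside the exon, MPRIP-206, covers 2360 of its bases, and reads from it would also count as inclusion. The annotation names 1 gene as an MPRIP pseudogene, so reads shared with that copy are uncertain.

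**Figure D3:**
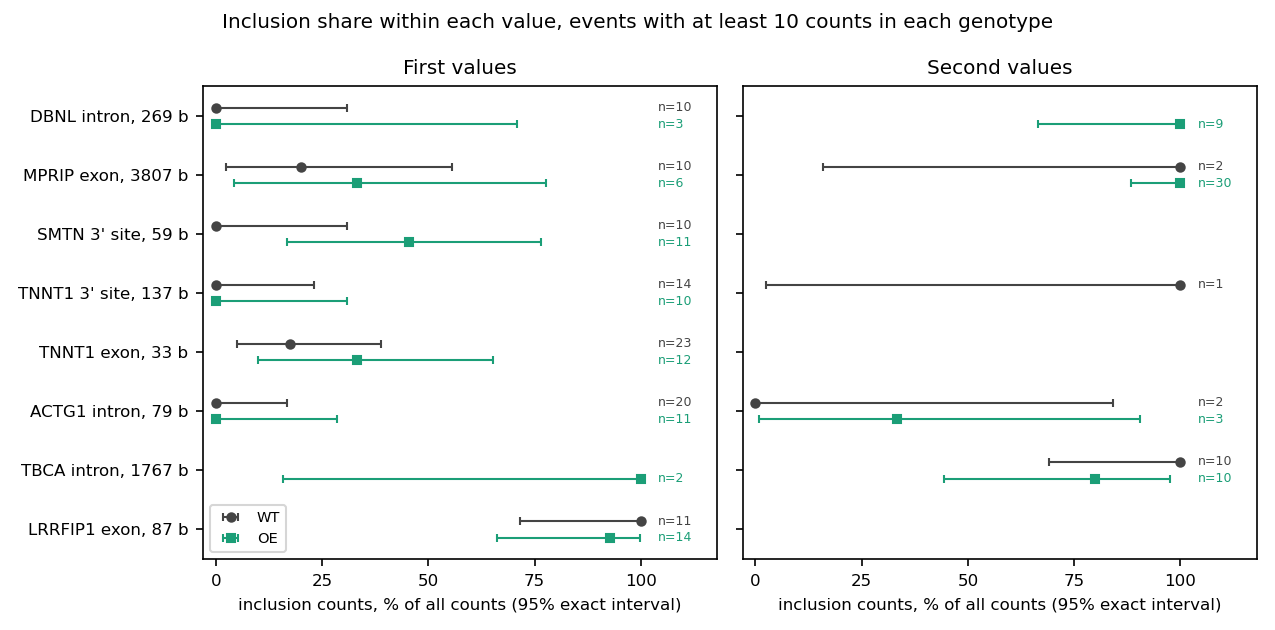
Share of inclusion counts in WT (grey circles) and OE (green squares) within the first and the second values, for the 8 events with at least 10 counts in each genotype, with exact 95% intervals and the number of counts n. In the first values only the SMTN site has a WT point at 0% beside an OE point above 40%, and their intervals overlap.

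SMTN had the widest gap in share between genotypes within a value, among events with at least 10 counts there in both; by level the gap was wider at the TBCA intron, at −76.3 points in the second values. Smoothelin is an actin-associated protein of contractile smooth muscle. At a 3' site 59 bases ahead of exon 4 of SMTN-202 (ENSG00000183963, chromosome 22, 31088454 to 31088512), the first value of OE had 5 inclusion counts of 11. The first value of WT had 0 of 10. These are shares of 45.5% (16.7 to 76.6) and 0%, where 0 of 10 allows up to 30.0%, so the intervals overlap. All counts of this site were first values, and the difference in level was 37.4 points. The 59 bases are not a multiple of 3 and carry no coding base in any of the 3 transcripts that hold them, SMTN-216, SMTN-217 and SMTN-218. Of these, SMTN-216 and SMTN-218 are annotated with no coding part at all, and SMTN-217 has only 15 coding bases. A second SMTN site, 881 bases ahead of exon 14 of the same transcript (31095852 to 31096732), had 2 inclusion counts in OE and 2 skipping counts in WT in the first values. In its second values only inclusion was seen, 1 count in OE and 4 in WT. The authors' deposited table gave this site a p of 0.0126 and an FDR of 0.359, and 1.06% of all its events had p under 0.05. With 9 counts in both genotypes together it stayed under the minimum.

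TNNT1, the slow skeletal troponin T that ties tropomyosin to the calcium-sensing troponin complex, was read almost entirely from the first values, 59 of its 60 counts. Its exon 5 in TNNT1-212 (ENSG00000105048, chromosome 19, 55146434 to 55146466, minus strand) has 33 bases and adds 11 codons. Of 12 counts in OE 4 were inclusion, and of 23 in WT 4 were. The shares of 33.3% (9.92 to 65.1) and 17.4% (4.95 to 38.8) overlapped widely, so most counts lacked the exon in both genotypes. At a 3' site 137 bases ahead of exon 7 (55141921 to 55142057), skipping took all 10 OE counts and 14 of 15 WT counts. A transcript annotated as TNNT1-207 also starts inside exon 5 and covers 21 of its bases. The longer form at the 3' site lies in TNNT1-207 alone, which is annotated as a target of nonsense-mediated decay. TNNT1 and SMTN were the only genes with an event among 23 muscle genes listed, and none of 12 colon epithelial marker genes had one, so the cell type could not be checked from these tables.

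ACTG1 had both forms in its second values, as TBCA did in OE. Gamma-actin is one of the most abundant proteins of non-muscle cells, and the annotation names 20 genes as its pseudogenes, so reads shared with such copies are uncertain. The intron of 79 bases between exons 4 and 5 of ACTG1-201 (ENSG00000184009, chromosome 17, 81511109 to 81511187, minus strand) was nearly always removed. Its skipping counts were 20 and 2 in the first and second values of WT and 11 and 2 in OE, with a single inclusion count, in the second value of OE. Added up, 0 of 22 WT counts (allowing up to 13.6%) and 1 of 14 OE counts (7.14%, 0.181 to 33.9) kept the intron. The first intron, of 373 bases (81512361 to 81512733), was the best covered event of the gene in WT. Inclusion took 4 of 7 counts in its first and 6 of 19 in its second value, or 57.1% (18.4 to 90.1) and 31.6% (12.6 to 56.6). The intervals overlapped. OE had 2 inclusion counts there and no others. Keeping this intron leaves the coding part of 1125 bases unaltered in ACTG1-210, and first exons of 3 other transcripts cover 72.4% of it. At a 3' site 177 bases ahead of exon 4 (81511627 to 81511803), inclusion took 3 of the 5 second-value counts of OE and none of the 6 of WT. The shares were 60.0% (14.7 to 94.7) and 0%, where 0 of 6 allows up to 50.0%.

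TBCA had its level lower in OE, and 20 of its 22 counts were second values. The intron of 1767 bases separates exons 3 and 4 of TBCA-202 (ENSG00000171530, chromosome 5, 77691499 to 77693265, minus strand). Inclusion took 10 of 10 counts in the second value of WT (100%, 69.2 to 100) and 8 of 10 in that of OE (80.0%, 44.4 to 97.5), and 2 of 2 in the first value of OE. These shares overlapped. Per kb of the inclusion form the second values were 5.22 in WT and 4.18 in OE. The difference in level, −72.0 points on added counts, rested on 2 skipping counts. A protein-coding transcript, TBCA-201, reads through the intron as its last exon, with 141 coding bases in it, and 3 genes are named as TBCA pseudogenes.

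In LMNA, too, the forms lay in different values. Its intron of 744 bases between exons 10 and 11 of LMNA-206 (ENSG00000160789, chromosome 1, 156137744 to 156138487) had 18 inclusion counts, all in the second value of OE. WT had 4 skipping counts, all in the first value. No value held counts in both genotypes, so the genotypes could not be compared at all, and WT stayed under the minimum. Inclusion counts came to 20.2 per kb in OE, beside 21.5 at the DBNL intron. Lamin C is known to end just past exon 10, where lamin A goes on. In the annotation the last exons of LMNA-203 and LMNA-207 run 122 bases into the intron with 18 coding bases, and with LMNA-202 and LMNA-217 such ends cover 56.2% of it. Reads there would count as inclusion without the intron being kept whole. A 3' site 40 bases ahead of exon 6 (156135861 to 156135900) had 1 inclusion count in OE and 3 of 4 counts in WT, all first values.

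**Figure D4:**
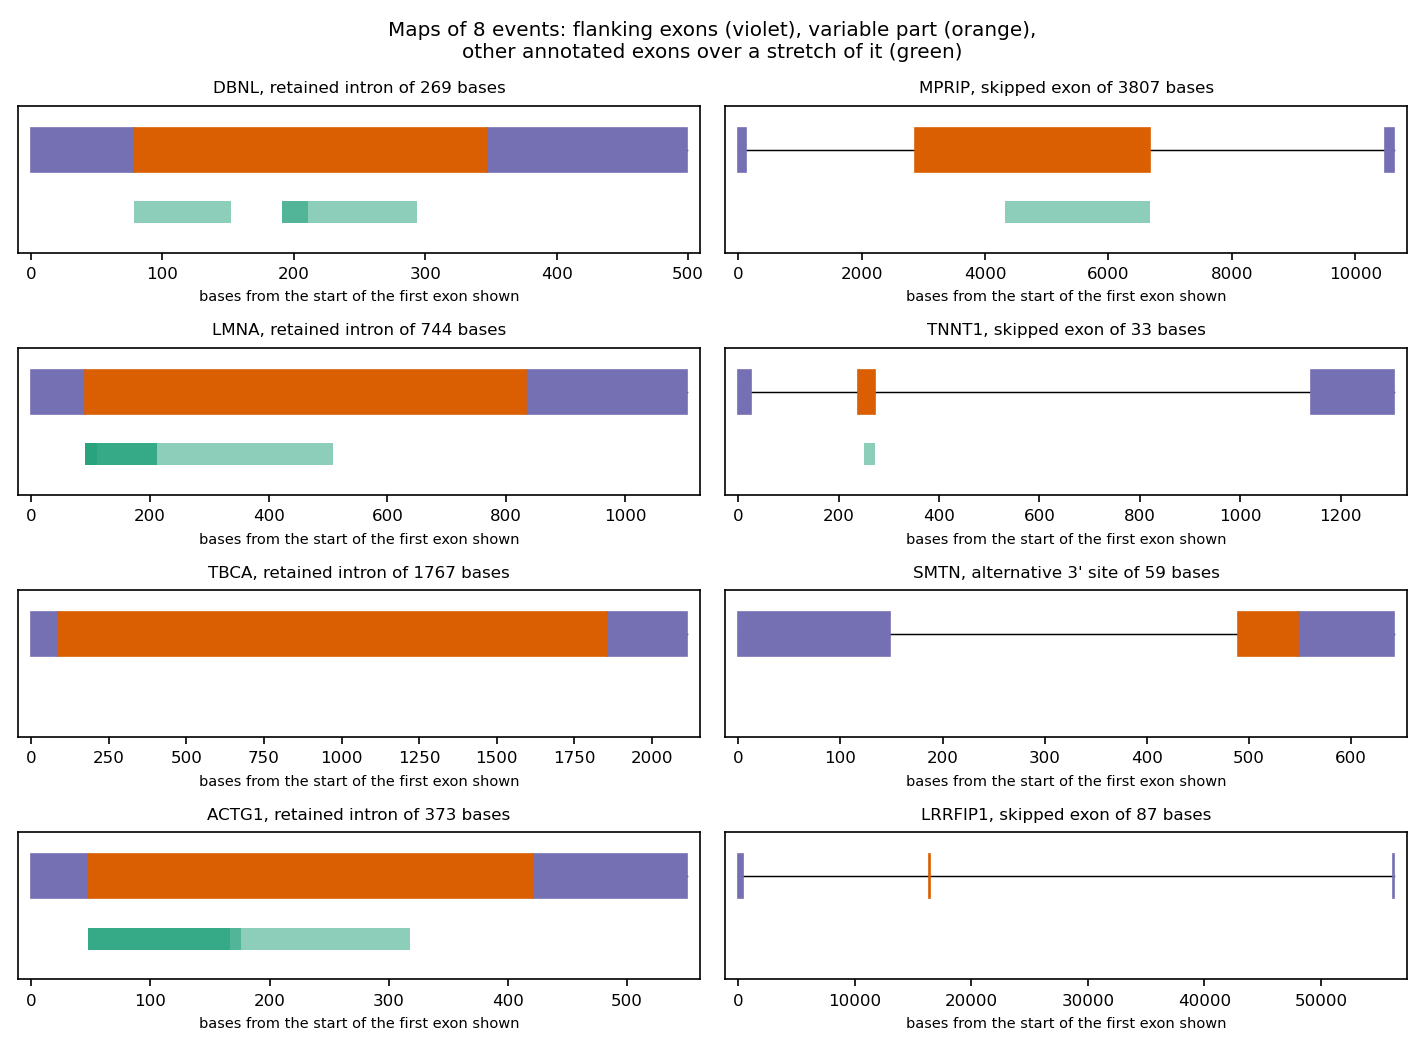
Maps of 8 events drawn to scale in the direction of transcription, in bases from the start of the first exon shown, with flanking exons in violet, the variable part in orange and exons of other annotated transcripts over a stretch of it in green (overlaps darker); a thin outline keeps short exons visible. Such exons cover 65.8% of the DBNL intron, 56.2% of the LMNA intron and 62.0% of the MPRIP exon. The TBCA, SMTN and LRRFIP1 parts have no exon over a stretch alone. Annotated exons that hold a whole part, such as exon 3 of TBCA-201, are not drawn in green.

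LRRFIP1 had almost only inclusion counts in both genotypes, on few counts, with a level difference of −10.9 points. Its exon 2 of 87 bases, or 29 codons (ENSG00000124831, chromosome 2, 237708544 to 237708630), was kept in 11 of 11 counts in WT (100%, 71.5 to 100) and 13 of 14 in OE (92.9%, 66.1 to 99.8). All were first values. No annotated transcript joins the flanking exons across it, and this was the only event of the 16 whose skipping form the annotation lacked. Per kb of the inclusion form it was the most densely included part, 55.1 in OE and 46.6 in WT. The annotation names 1 gene as an LRRFIP1 pseudogene. AFDN had the smallest event, a shift of 3 bases, or 1 codon, at the start of exon 4 of AFDN-203 (ENSG00000130396, chromosome 6, 167872214 to 167872216). Inclusion took 2 of 3 counts in OE and 0 of 2 in WT, too few for a comparison.

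Within a value, 10 of the 16 events had first-value counts in both genotypes and 7 had second-value counts in both. OE was higher in 6 of the 10, lower in 1 and equal in 3. In the second values it was higher in 3 of the 7, lower in 1 and equal in 3. No minimum count was set for these directions, so some rest on very few counts, such as 1 in OE at the LMNA 3' site. The equal events had 0% in both genotypes in the first values and 100% in both in the second. Over all events the counts were 82 higher, 47 lower and 44 equal of 173 in the first values, and 93, 33 and 57 of 183 in the second. Of the 16 events, 2 (12.5%), the LMNA intron and the DBNL 3' site, had no value in common, against 30.1% of all events. None of the 16 variable parts overlapped another annotated gene on either strand.

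The other genes of these systems were thinly covered. Of 160 cytoskeletal genes in 6 lists, 16 had a listed event, and the 7 outside the 9 genes had 11 events, none with 10 counts in each genotype. The muscle and non-muscle myosin light chain gene MYL6 had 5 events. Its intron of 279 bases held 10 second-value inclusion counts in OE and 2 skipping counts in the first value of WT. TUBA1B, an alpha-tubulin, had 17 inclusion counts and 1 skipping count in the second value of OE at an intron of 1575 bases, where the values of WT held 2 inclusion and 2 skipping counts first and 2 inclusion counts second. STMN1, which sequesters tubulin, had skipping in its first values (15 in WT, 4 in OE) and inclusion in its second (6 and 2). ACTB, the other cytoplasmic actin, had 4 inclusion counts in the second value of each genotype, with 7 skipping counts in each value of OE and, in WT, 4 in the first value and 0 in the second. ADD1, CALD1 and MYO18A had 2 to 8 counts per genotype.

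The peak lists gave a readout that had no part in the choice of genes. None of the 57 WT peaks and 30 OE peaks of IP over input overlapped any of the 9 genes by 1 base or more. How many other genes held a peak was not counted here, so nothing about the 9 genes is read from this absence. Absence from lists of this depth does not show that these RNAs were missing from the IP.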

How the data were processed

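The genes and gene lists were chosen with earlier results of these data known. Inclusion and skipping counts, 2 values per cell, came from the deposited splicing tables with the authors' p-value and FDR. The sources used here do not name the caller or aligner. Peaks were called with MACS 2.1.0.20150420, per the file headers, and the deposited lists gave a pileup signal, a fold ratio and −log10 p and q values, of which positions and q were used. FastQC 0.11.5 and HOMER are named in the submitters' processing notes. Fisher's exact test (two-sided, SciPy 1.17.1) was run on the added counts of all events with at least 10 counts in each genotype. It was also run on first against second values with at least 10 in each value. Each run had Benjamini-Hochberg adjustment at 0.05. The test compares libraries, not conditions. It was tried on simulated data in which both values of a genotype had the same inclusion probability. Those data therefore cannot show how the test behaves where the values differ. All 9 genes and all 16 events are named, as the rule for named genes asked, with the other listed cytoskeletal genes that had an event. Events were placed on the deposited annotation by exact exon edges. Its build is not given in the sources used here, and all 9 genes overlapped their RefSeq namesakes on GRCh38.p14. Alternatives were other minimum counts, a test stratified by value, each value alone, shares without length correction, equally weighted values, peaks at exons or with q under 0.05, and edges within 3 bases.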

Additional observations from a re-analysis of the deposited data

How the results depend on the processing

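No paired analysis was possible because each group had 1 library and the labels gave no replicate numbers. Over all events, the 9 calls on added counts became 15 of 90 at a minimum of 5 counts and 2 of 6 at a minimum of 20, where fewer events are tested. They became 1 of 32 in the exact test stratified by value, 0 of 15 with the first values alone (2 at an unadjusted p under 0.05) and 1 of 5 with the second values alone. The 2 calls among the 9 genes, DBNL and MPRIP, stayed at a minimum of 5. They became 0 of 8 when stratified (1 unadjusted), 0 of 5 with the first values (1 unadjusted) and 0 of 1 with the second values (0 unadjusted). No event of the 9 genes reached 20 counts in each genotype. The test of first against second values had 1 comparison at 10 counts in each value, with 0 called and none in the 9 genes. At 5 counts it called 9 of 20, and at 20 counts no comparison was left. The median level difference over the 8 events was 0 with the first values alone (7 events) and 0 with the second alone (3 events), 11.5 points without length correction and 6.39 with equally weighted values. With the first values OE was higher in 3, lower in 1 and equal in 3, and with the second in 1 each. The equal events had 0% in both genotypes in the first values and 100% in the second. No minimum was set within a value, so these medians of 0 do not show that a difference was absent. The interval of a level difference ran from the lower OE minus the upper WT limit to the upper OE minus the lower WT limit. It is wide, and differences without length correction were set against it too. At TBCA it was −92.3 to 63.6 points, so −72.0 becoming −16.7 without length correction counted as staying within it. Of 26 alternative values of single events, 20 stayed within the interval of the main value, 6 left it and 0 changed sign. Of those that left it, 4 were at MPRIP, where the level difference of 21.3 points became 55.6 without length correction, 0.916 with the first values, 0 with the second and 0.458 with equally weighted values. At the DBNL intron of 269 bases, 51.7 points became 0 with the first values. At the TNNT1 3' site, −3.59 points became −50.0 with equally weighted values. Peak overlaps (0) and events with both forms annotated (15) were the same under their alternatives. Depth limits every share: at 10 counts, a count of 0 allows up to 30.0%.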
